A study of Hevea brasiliensis with 21 samples.

Results

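CL1071Contig1 and CL1071Contig3 are 2 of the 3 contigs of assembly cluster CL1071, all annotated as homeobox proteins, out of 86941 contigs in all. In the annotation of the rubber tree (Hevea brasiliensis) transcriptome, CL1071Contig1 and CL1071Contig3 have the castor bean (Ricinus communis) as the closest match. They were chosen by their annotation with the read pair counts of all 21 latex libraries known, and all of these counts are treated as used in the choice, so they are given as a description. Whether a contig passed the threshold of the fit across all contigs is stated as part of that description, with no p-value printed and nothing read from it. Laticifers are the tube-like bark cells that make rubber, latex is their fluid content, and each of the 7 groups held 3 trees. The PB260 groups, all tapped every other day for 36 months, were trees with severe tapping panel dryness (TPD, in which part or all of the tapping cut gives no latex) under ethephon, trees with slight TPD under ethephon, and control trees without ethephon. Ethephon releases ethylene in the bark and was applied 12 times a year. The control trees of PB260 had slight TPD as well, although the sample labels call them and the slight TPD trees under ethephon healthy.

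The PB217 groups were TPD trees under ethephon at month 36, control trees at month 36, healthy trees under ethephon at month 1 and control trees at month 1. Their month and ethephon rate were read from the sample titles, which also carry the codes T and D1 for every PB217 tree and S and D2 for every PB260 tree. The sources used here do not explain T and D1, and what they stand for differs along with the clone. The labels give every tree as wild type. Latex of the month 36 trees under ethephon and of the month 36 control trees was taken on separate days in both clones, so that the day and ethephon cannot be told apart there. Slight and severe TPD trees of PB260 shared a harvest day, and so did both PB217 groups of month 1. In PB217 at month 36, ethephon and TPD came together and cannot be told apart either. Reads of both clones were mapped to a PB260 transcriptome, so that a difference between clones in sequence, in expression or in what the T, S, D1 and D2 codes mark cannot be told apart.

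Homeobox proteins are transcription factors that bind DNA through a homeodomain. In plants many of them belong to the HD-Zip family, in which a leucine zipper beside the homeodomain joins the proteins in pairs, and members of that family take part in development and in responses to drought, light and hormones. The family of CL1071Contig1 and CL1071Contig3 was not stated more closely. The remaining contig of the cluster, CL1071Contig2, was annotated as similar to HAT22, an HD-Zip protein known from Arabidopsis. CL1071Contig1 was 1210 bases long, CL1071Contig3 1172 bases and CL1071Contig2 246 bases. The 3 contigs may be separate genes, alleles or pieces of one gene. Pairs that hit several contigs equally well were not counted, so sequence shared exactly within the cluster adds nothing to the counts. Pairs from nearly identical sequence may still fall on the wrong contig. The length open to counting on each contig is not known, and levels and ratios per kb, which use the full length, depend on it.

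The libraries held 16102321 to 23126417 counted pairs. The library least like its group was TPD tree 2 of PB217 at month 36, with a mean within-group correlation of 0.941, followed by severe TPD tree 2 of PB260 with 0.955. Fold changes without these trees are given below. Known laticifer markers were not named in the annotation held here, so the latex label was not checked against them. The summed level of 2 contigs of photosynthesis, which mark green bark cells, was 0.0527 to 0.578 CPM over the 21 libraries. Of 62 contigs matching powdery mildew fungi, 3 to 6 per group had any count. Their summed level was 5.08 to 11.5 CPM in severe TPD trees and 7.46 to 11.6 CPM in slight TPD trees, against 12.9 to 16.3 CPM in control trees of PB260. It was 1.62 to 6.66 CPM in the libraries of PB217. The part of these levels in the values below was not tested.

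Both contigs were abundant in latex. CL1071Contig1 had 2647 to 8769 pairs per library and CL1071Contig3 had 2441 to 29352 pairs. The counting error was therefore at most 1.94% for CL1071Contig1 and 2.02% for CL1071Contig3, which covers counting only. Levels are given as CPM, counts per 1000000 counted pairs after TMM scaling over the 21 libraries. CL1071Contig1 lay between 152 and 352 CPM with a median of 215 CPM, a 2.32-fold range and a coefficient of variation of 19.6%. CL1071Contig3 lay between 195 and 1178 CPM with a median of 404 CPM, a 6.05-fold range and a coefficient of variation of 59.4%. Ranked by pairs per kb within each library, CL1071Contig1 was between position 214 and position 939 of all contigs, and CL1071Contig3 between position 32 and position 820. CL1071Contig1 thus varied less among the trees than CL1071Contig3.

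CL1071Contig3 had 780, 822 and 822 CPM in severe TPD trees under ethephon and 1178, 904 and 849 CPM in slight TPD trees under ethephon, against 434, 265 and 246 CPM in control trees of PB260. In PB217 at month 36 it had 632, 662 and 579 CPM in TPD trees under ethephon, against 254, 404 and 315 CPM in control trees. At month 1 it had 236, 278 and 200 CPM in PB217 trees under ethephon, against 195, 228 and 217 CPM in control trees. All 9 libraries from trees under ethephon at month 36 were above all 12 others. The share of all contigs with this separation was not counted, so nothing is read from it. A lower amount of RNA per cell and a lower share of the cells that hold it cannot be told apart in such bulk samples.

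CL1071Contig1 had 182, 174 and 213 CPM in severe TPD trees and 352, 201 and 225 CPM in slight TPD trees, against 221, 215 and 244 CPM in control trees of PB260. TPD trees of PB217 had 231, 152 and 311 CPM of it, against 235, 234 and 243 CPM in control trees of month 36. At month 1 it had 212, 229 and 194 CPM in PB217 trees under ethephon, against 211, 206 and 185 CPM in control trees. Its highest library was slight TPD tree 1 of PB260, which was also the highest for CL1071Contig3. Its lowest was TPD tree 2 of PB217, the library least like its group.

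**Figure D1:**
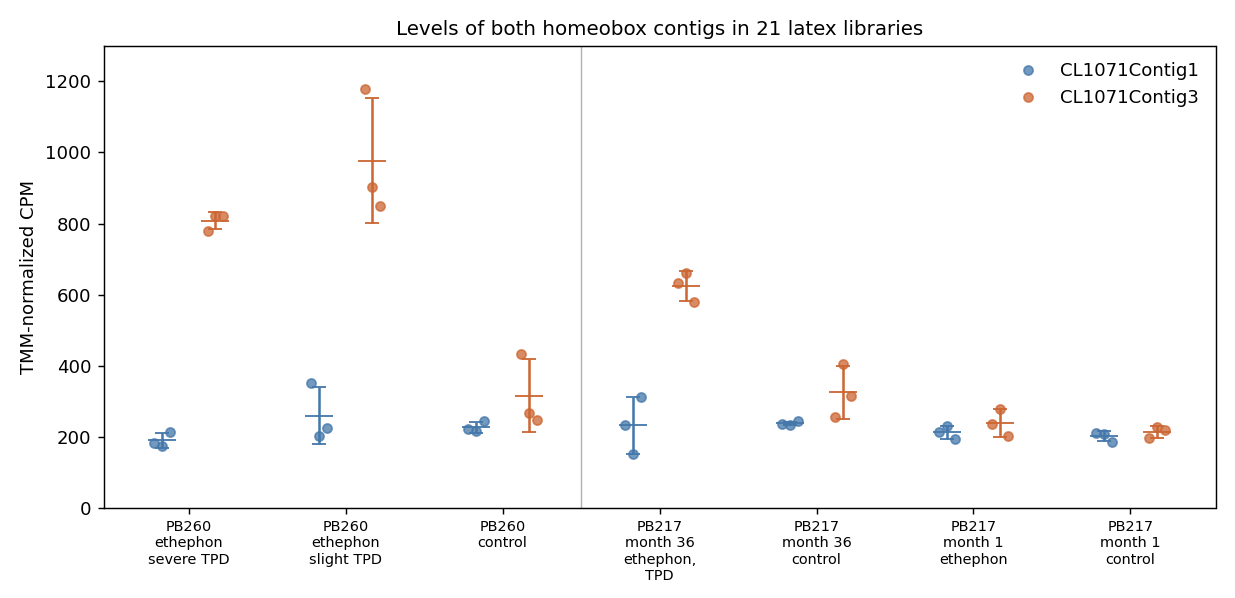
TMM-normalized CPM of CL1071Contig1 (blue) and CL1071Contig3 (orange) in the 21 latex libraries by group, with PB260 left and PB217 right of the grey line. Points are trees, and the long dash and bars are the mean and SD of 3 trees. CL1071Contig3 lies at 579 CPM or more in the trees under ethephon at month 36 and at 434 CPM or less in the others, while CL1071Contig1 stays between 152 and 352 CPM.

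By group mean, CL1071Contig3 was highest in slight TPD trees of PB260 with 977 ± 176 CPM, followed by severe TPD trees of PB260 with 808 ± 24.3 CPM and TPD trees of PB217 with 624 ± 41.9 CPM (SD, n = 3). These 3 groups did not overlap with each other or with the rest. Below them came control trees of PB217 at month 36 with 324 ± 75.1 CPM, control trees of PB260 with 315 ± 103 CPM, PB217 trees under ethephon at month 1 with 238 ± 39.1 CPM and control trees of month 1 with 213 ± 17 CPM (SD, n = 3). Each of these 4 groups overlapped with its neighbour in this order. Of all tested contigs, 6.69% were likewise lower without overlap in severe against slight TPD trees. For TPD trees of PB217 against severe TPD trees the share was 14.3%. Against their control trees, 22.1% were higher without overlap in slight TPD trees, 18.5% in severe TPD trees and 19.5% in TPD trees of PB217. The share with all of these at once was not counted.

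The group means of CL1071Contig1 ran from 190 ± 20.5 CPM in severe TPD trees of PB260 to 259 ± 81.3 CPM in slight TPD trees of PB260 (SD, n = 3). Between them lay control trees of month 1 with 201 ± 14.0 CPM, PB217 trees under ethephon at month 1 with 212 ± 17.3 CPM and control trees of PB260 with 227 ± 15.1 CPM. TPD trees of PB217 had 231 ± 79.5 CPM and control trees of PB217 at month 36 had 237 ± 5.20 CPM. Every pair of neighbours in this order overlapped.

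The contigs were then compared across the groups with edgeR's quasi-likelihood test, a contig being called at an adjusted p under 0.05. The test covered all contigs with at least 1 CPM in at least 3 of the 6 libraries, or in 6 of 12 for the differences of responses. CL1071Contig3 passed in 5 of 11 comparisons and CL1071Contig1 in none of them. Since the members were chosen with these counts in view, the calls are no test of them and stand beside the share of all tested contigs called.

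The first question was the response to ethephon in PB260 trees with slight TPD. CL1071Contig3 was 3.11-fold higher in slight TPD trees under ethephon than in control trees, a log2 fold change of 1.64 (standard error, SE, 0.26), and it was called along with 27.6% of all tested contigs (13.2% higher). The groups did not overlap, as was the case for 22.1% of contigs in this direction. Without slight TPD tree 1, its highest library, the log2 fold change was 1.50, and without control tree 1, the highest control, it was 1.91. CL1071Contig1 showed a log2 fold change of 0.19 (SE 0.23) and overlapping groups. Its sign turned on slight TPD tree 1, without which the log2 fold change was -0.072.

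The second question was TPD severity among trees under ethephon. CL1071Contig3 showed a log2 fold change of -0.30 (SE 0.19) in severe against slight TPD trees, and CL1071Contig1 one of -0.47 (SE 0.23). Neither was called, where 0.133% of tested contigs were. The groups did not overlap for CL1071Contig3, at 780 to 822 CPM in severe TPD trees against 849 to 1178 CPM in slight TPD trees, as for 6.69% of contigs in this direction. Both values rested in part on slight TPD tree 1, without which they were -0.15 for CL1071Contig3 and -0.19 for CL1071Contig1. Without severe TPD tree 2 the log2 fold change of CL1071Contig3 was -0.28.

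Severe TPD trees under ethephon were also compared with the same control trees. CL1071Contig3 was 2.58-fold higher in severe TPD trees, a log2 fold change of 1.37 (SE 0.26), and it was called along with 11.5% of tested contigs (6.60% higher). The groups did not overlap, as for 18.5% of contigs in this direction. The call was lost without control tree 2, where the log2 fold change was 1.23, and it was 1.36 without severe TPD tree 2. CL1071Contig1 showed a log2 fold change of -0.24 (SE 0.19) and was not called. Its groups did not overlap, with 213 CPM at most in severe TPD trees against 215 CPM at least in control trees, as for 17.2% of contigs in this direction.

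In PB217 at month 1, neither contig was called between trees under ethephon and control trees. The log2 fold change was 0.16 (SE 0.17) for CL1071Contig3 and 0.08 (SE 0.15) for CL1071Contig1, and the groups of both overlapped. No contig at all passed here with edgeR's quasi-likelihood test (0% of 27226), while at an unadjusted p under 0.05 there were 1198 higher contigs and 1022 lower ones. DESeq2 called 55 contigs and edgeR's exact test 88.

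In PB217 at month 36, CL1071Contig3 was higher in TPD trees under ethephon than in control trees, with a log2 fold change of 0.94 (SE 0.24), and a call shared by 8.94% of tested contigs (4.51% higher). The groups did not overlap, as for 19.5% of contigs in this direction. The call was lost when control tree 1 (0.79), control tree 2 (1.13), control tree 3 (0.92) or TPD tree 1 (0.95) was left out, and with DESeq2 size factors in place of TMM (0.91). It was kept without TPD tree 2, with a log2 fold change of 0.91. CL1071Contig1 showed a log2 fold change of -0.04 (SE 0.27). Its 3 TPD trees lay on both sides of the control trees, with 152 CPM below and 311 CPM above them, and without TPD tree 2 its log2 fold change was 0.20.

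The change with time in PB217 was followed in trees without ethephon and in trees with it. In control trees, CL1071Contig3 showed a log2 fold change of 0.65 (SE 0.19) at month 36 against month 1, and it was called with 35.3% of tested contigs (18.1% higher). This call was lost without month 36 control tree 2 (0.47), month 1 control tree 1 (0.59) or month 1 control tree 2 (0.68), and with all 21 libraries in one fit (0.60). The groups of CL1071Contig3 did not overlap, at 254 CPM or more at month 36 against 228 CPM or less at month 1, as for 21.7% of contigs in this direction. CL1071Contig1 showed a log2 fold change of 0.28 (SE 0.15) and was not called. Its groups did not overlap, at 234 CPM or more in month 36 control trees against 211 CPM or less in month 1 control trees, as for 21.7% of contigs in this direction.

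In trees under ethephon, CL1071Contig3 showed a log2 fold change of 1.39 (SE 0.25) in TPD trees of month 36 against healthy trees of month 1, with a call that 24.1% of tested contigs shared (12% higher). The groups did not overlap, as for 22.3% of contigs in this direction. The call was lost without month 1 tree 3 (1.27) and kept without TPD tree 2 (1.39). CL1071Contig1 showed a log2 fold change of 0.13 (SE 0.28), which was -0.10 without TPD tree 3. The months also differed in harvest day and, under ethephon, in TPD and, by the months of the titles, in how long ethephon had been applied. These cannot be told apart.

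A fold change that is called at month 36 and not at month 1 is not shown to differ between the months. The difference of the ethephon response in PB217, month 36 minus month 1, was fitted over 12 libraries as a comparison added after the data were seen. It was 0.76 on the log2 scale (SE 0.29) for CL1071Contig3 and -0.14 (SE 0.31) for CL1071Contig1. Neither was called, where 7.59% of contigs were, and CL1071Contig3 stood at 0.71 without TPD tree 2. With library totals in place of TMM the difference for CL1071Contig3 was 1.36 and was called, in a comparison whose median over all contigs moved to 0.58 under that scaling.

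Both clones were also set side by side at month 36. In control trees, PB217 against PB260, the log2 fold change was 0.08 (SE 0.26) for CL1071Contig3 and 0.10 (SE 0.16) for CL1071Contig1. The groups of both overlapped and neither was called, where 29.2% of tested contigs were. With library totals the values were -0.33 and -0.30, where the median of all contigs was -0.43. CL1071Contig3 was also of the other sign without PB217 control tree 2 (-0.09), PB260 control tree 2 (-0.08) or PB260 control tree 3 (-0.12).

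The titles give the TPD of PB217 without a severity, so it may differ from the severe TPD of PB260 that it is compared with below. In dry trees under ethephon, TPD trees of PB217 against severe TPD trees of PB260, CL1071Contig3 showed a log2 fold change of -0.38 (SE 0.25) and CL1071Contig1 one of 0.29 (SE 0.30). Neither was called, where 9.52% of tested contigs were, although the groups of CL1071Contig3 did not overlap, as for 14.3% of contigs in this direction. Its log2 fold change was -0.44 without TPD tree 2 of PB217 and -0.37 without severe TPD tree 2. For CL1071Contig1 it was 0.057 without TPD tree 3 of PB217 and 0.49 without TPD tree 2. The difference between the clones in the response, PB217 minus PB260, was -0.42 (SE 0.35) for CL1071Contig3 and 0.22 (SE 0.34) for CL1071Contig1. Neither passed, where 0.166% of contigs did. For CL1071Contig3 the difference was -0.72 without PB260 control tree 1, -0.27 without PB260 control tree 3 and -0.24 without PB217 control tree 2, while it was -0.46 without TPD tree 2 of PB217 and -0.42 without severe TPD tree 2. For CL1071Contig1 it was 0.45 without TPD tree 2 of PB217 and -0.060 without TPD tree 3.

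**Figure D2:**
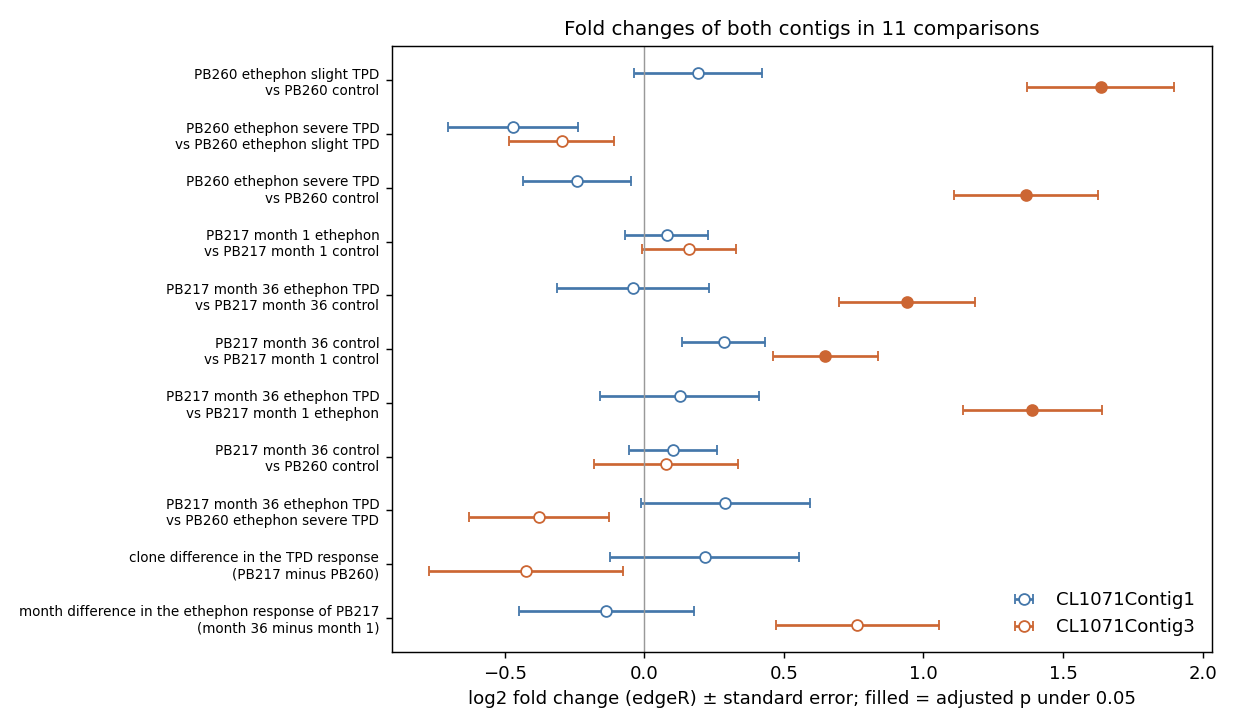
Log2 fold changes of CL1071Contig1 (blue) and CL1071Contig3 (orange) in 9 comparisons of groups and 2 differences of responses, with bars for the standard error. Filled points passed an adjusted p under 0.05 in edgeR. CL1071Contig3 ranges from -0.42 to 1.64 with 5 filled points, and CL1071Contig1 from -0.47 to 0.29 with none.

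The ratio of both contigs within one library does not depend on the scaling between libraries. There were 4.29, 4.73 and 3.86 pairs of CL1071Contig3 per pair of CL1071Contig1 in severe TPD trees and 3.35, 4.50 and 3.78 in slight TPD trees, against 1.96, 1.24 and 1.01 in control trees of PB260. TPD trees of PB217 had ratios of 2.73, 4.35 and 1.86, against 1.08, 1.73 and 1.30 in control trees of month 36. At month 1 it was 1.11, 1.22 and 1.03 in PB217 trees under ethephon, against 0.922, 1.11 and 1.18 in control trees. Within each clone the groups under ethephon at month 36 did not overlap with their controls. However, TPD tree 3 of PB217 (1.86) lay below control tree 1 of PB260 (1.96). How often the ratio of other contigs separates the groups in this way was not counted. Per kb of contig the ratio is 1.03 times these values, and CL1071Contig3 was above CL1071Contig1 in 20 of 21 libraries, month 1 control tree 1 being the exception.

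On the log2 scale the ratio averaged 2.10 ± 0.15 in severe TPD trees and 1.94 ± 0.21 in slight TPD trees, against 0.43 ± 0.49 in control trees of PB260 (SD, n = 3). In PB217 it averaged 1.49 ± 0.61 in TPD trees under ethephon, against 0.43 ± 0.34 in control trees at month 36, and 0.16 ± 0.12 in trees under ethephon, against 0.09 ± 0.18 in control trees at month 1 (SD, n = 3). The difference of the mean log2 ratio was 1.51 (SE 0.31) for slight TPD trees against control trees and 1.67 (SE 0.30) for severe TPD trees against control trees. It was 0.15 (SE 0.15) for severe against slight TPD trees.

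In PB217 the log2 ratio differed by 1.06 (SE 0.41) between TPD trees and control trees at month 36 and by 0.07 (SE 0.13) between trees under ethephon and control trees at month 1. Without TPD tree 2, which had both the highest CL1071Contig3 and the lowest CL1071Contig1 of its group, the difference at month 36 was 0.75. The spread of the ratio among TPD trees of PB217 came with a spread of CL1071Contig1 from 152 to 311 CPM, while CL1071Contig3 stayed between 579 and 662 CPM. Over time the difference was 0.34 (SE 0.22) in control trees and 1.33 (SE 0.36) in trees under ethephon, month 36 against month 1.

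**Figure D3:**
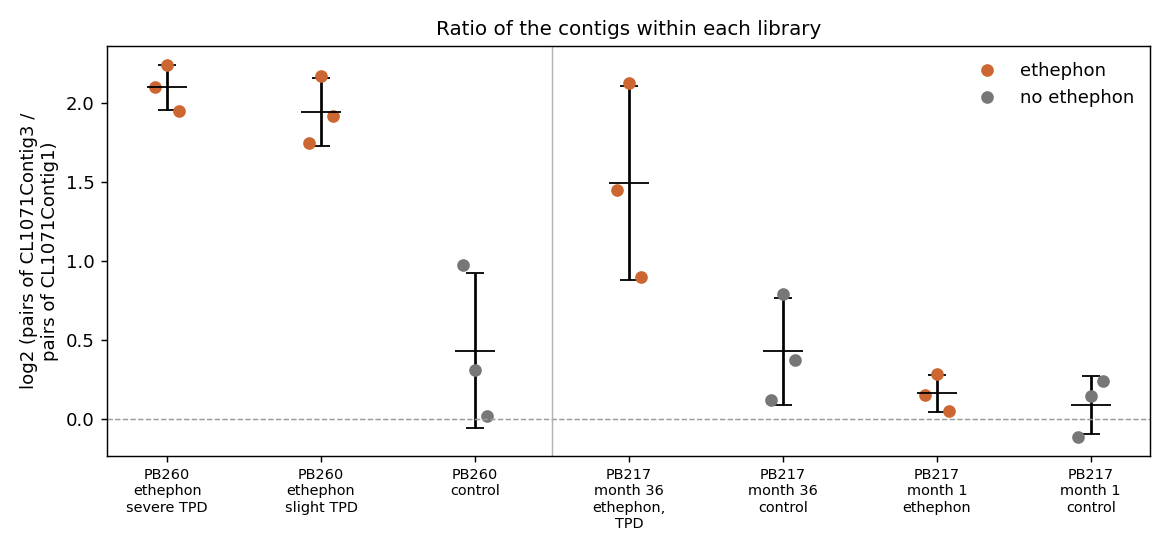
Log2 of the pairs of CL1071Contig3 over the pairs of CL1071Contig1 in each of 21 libraries by group, with PB260 left and PB217 right of the grey line. Points are trees (orange under ethephon, grey without), the long dash and bars are the mean and SD of 3 trees, and the dashed line marks equal counts. The 3 groups under ethephon at month 36 average 1.49 to 2.10 and the other groups 0.09 to 0.43.

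The other homeobox contigs of the list used here had few or no counted pairs. CL1071Contig2 is only 246 bases long and may be a piece of the same gene as a member, so its low count does not show that such a transcript is missing from latex. The study counts more homeobox contigs that changed under ethephon than are listed here, and more of them were lower than higher. Those it counts in severe against slight TPD trees were all lower. CL1071Contig2, the HAT22-like contig, had 7, 7 and 6 pairs in severe TPD trees and 25, 4 and 2 pairs in slight TPD trees, against 3, 0 and 4 pairs in control trees of PB260. It had 7, 8 and 7 pairs in TPD trees of PB217, against 1, 2 and 1 pairs in control trees at month 36. At month 1 it had 1, 2 and 0 pairs in trees under ethephon, against 2, 3 and 3 pairs in control trees. It reached 1 CPM in 1 of 21 libraries, slight TPD tree 1, and passed the filter in no comparison. CL10614Contig1 and CL10614Contig2, annotated as zinc-finger homeodomain proteins, a plant family in which a zinc finger accompanies the homeodomain, had at most 1 and 7 pairs in any library.

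Set beside 18 other contigs annotated as transcription factors, CL1071Contig2 among them, both members were the most abundant per kb. The highest of the 18, CL1070Contig3, averaged 29.7 CPM per kb over the 21 libraries, and it was annotated as RF2a, a bZIP factor known from rice. Annotation was held for only a part of the contigs, so other abundant factors may be missing from this list. Nor does the list hold every factor whose annotation was held. The WRKY 22-like CL18582Contig1, named below for its likeness to CL1071Contig3, is outside it. That contig averaged 13.2 CPM in slight TPD trees against 0.525 CPM in control trees of PB260. In PB217 at month 36 it averaged 5.68 CPM in TPD trees against 0.421 CPM in control trees. The counts that follow cover the 18 only. Between 6 and 7 of the 18 passed the filter in each comparison. In slight TPD trees against control trees, 0 of 6 were higher and 1 was lower, with a median log2 fold change of -0.03, against 0.00 over all contigs and 27.6% of them called. Between TPD trees and control trees of PB217 at month 36, 1 of 7 was higher and 0 lower, with a median of 0.12, against 0.06 over all contigs and 8.94% called.

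**Figure D4:**
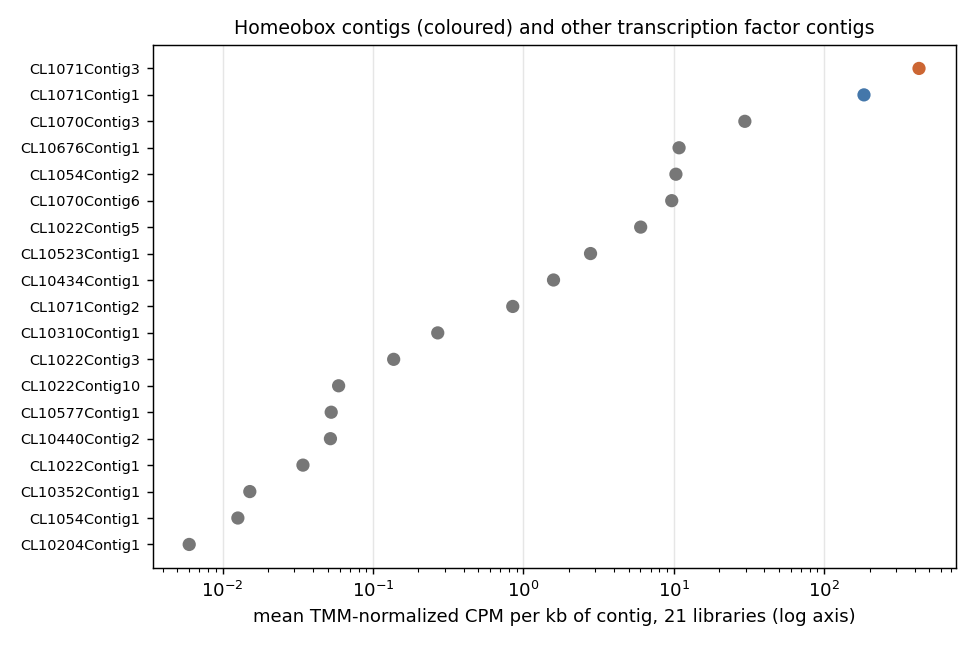
Mean TMM-normalized CPM per kb over 21 libraries, on a log axis, of CL1071Contig3 (orange), CL1071Contig1 (blue) and 17 other contigs annotated as transcription factors (grey). 1 further contig of the list had no counts and is not drawn. CL1071Contig3 and CL1071Contig1 lie above the highest grey point, CL1070Contig3 at 29.7 CPM per kb.

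Of the 18, the 3 with the highest mean CPM, without regard to length, are described here. The list and this rule were chosen with earlier results of these data known, so the adjusted p-values below are a description and no test. CL10676Contig1 entered with a mean of 14.3 CPM, against 13.9 CPM for the next contig, CL1054Contig2. The other factor contig annotated as RF2a, CL1070Contig6, fell in slight TPD trees under ethephon, with 18.7 ± 1.33 CPM against 32.0 ± 2.99 CPM in control trees of PB260 (SD, n = 3), which is -0.77 on the log2 scale (SE 0.16) with an adjusted p of 0.00638 from edgeR. CL1070Contig3 had 47.6 ± 5.88 CPM in slight TPD trees and 56.9 ± 8.23 CPM in control trees (SD, n = 3), with an adjusted p of 0.323 from edgeR. In PB217 at month 36 against month 1, CL1070Contig3 was called higher in control trees (log2 fold change 0.88) and under ethephon (1.33). CL1070Contig6 was called higher there in control trees (0.44). Of all tested contigs, 35.3% were called in control trees over time and 24.1% under ethephon. CL10676Contig1, a DREB2C-like factor of the kind that binds drought-responsive promoter elements in Arabidopsis, rose in TPD trees of PB217, with 10.0 ± 2.56 CPM against 4.91 ± 0.513 CPM in control trees at month 36 (SD, n = 3). This is 1.03 on the log2 scale (SE 0.26), with an adjusted p of 0.0428 from edgeR. The call of CL10676Contig1 was lost when control tree 1 (0.95), control tree 2 (1.10), control tree 3 (1.04) or TPD tree 1 (1.05) was left out. It was also called in PB217 trees under ethephon over time (0.94) and in the month difference (1.17), where 24.1% and 7.59% of tested contigs were. Between control trees of month 36, PB217 against PB260, it was called lower (-1.99), where 29.2% of tested contigs were called. In PB260 it had 35.6 ± 15.9 CPM in slight TPD trees and 20.0 ± 2.19 CPM in control trees (SD, n = 3), with an adjusted p of 0.0582 from edgeR, a log2 fold change of 0.83 that was called at 1.10 without slight TPD tree 2 and was 0.45 without slight TPD tree 3.

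The contigs most like each member were sought by Pearson's r of log2(CPM + 1) over the 21 libraries, among 34212 contigs. The libraries share groups of 3 trees, a transcriptome and, in part, harvest days, so r describes them only. The members themselves had an r of 0.12, and 0.12 again after subtracting the group means. For CL1071Contig3, 356 contigs had an r of at least 0.9 and 1794 of at least 0.8. The closest were CL13869Contig1 (r = 0.98), CL8606Contig1 (r = 0.97), CL10629Contig2 (r = 0.97), CL18582Contig1 (r = 0.97) and CL1Contig2962 (r = 0.97). Of these, CL18582Contig1 was annotated as similar to WRKY 22, a factor of the plant-specific WRKY family, and CL10629Contig2 as a hypothetical protein.

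CL18582Contig1 averaged 8.40 CPM in severe TPD trees and 13.2 CPM in slight TPD trees, against 0.525 CPM in control trees of PB260, and 5.68 CPM in TPD trees of PB217, against 0.421 CPM in control trees at month 36. CL10629Contig2 averaged 206 CPM in severe TPD trees and 218 CPM in slight TPD trees, against 13.6 CPM in control trees of PB260. It averaged 123 CPM in TPD trees of PB217, against 9.40 CPM in control trees at month 36. At month 36 both were, like CL1071Contig3, highest in slight TPD trees, then in severe TPD trees, then in TPD trees of PB217, and lowest in the control trees. Since both were picked for their likeness over these same libraries, a similar order follows from the choice and is no result. CL8606Contig1, also among the closest, averaged 69.0 CPM in severe TPD trees and 66.7 CPM in slight TPD trees, the other order.

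For CL1071Contig1 no contig reached an r of 0.8. The closest were CL46Contig20 (r = 0.79), CL1Contig10878 (r = 0.75), CL4507Contig1 (r = 0.73), CL182Contig11 (r = 0.72) and CL1040Contig2 (r = 0.71). The last was annotated as a pentatricopeptide repeat protein, a family that acts on RNA in plant organelles. Its group means lay between 13.2 and 15.7 CPM. A total of 9498 contigs were more like CL1071Contig1 than CL1071Contig3 was.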

How the data were processed

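Latex RNA of 21 trees was sequenced in pairs. Per the labels and the study's methods, the authors used the fastx toolkit for trimming and sortMeRNA against ribosomal reads, mapped the rest to PB260 contigs with Bowtie2 (the labels also name TopHat2), dropped reads hitting several contigs equally well, and deposited 2 raw counts per contig, of pairs with both mates on it and of reads. The methods describe PB260 only. Versions were not given in the sources used here.

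Pair counts were fitted with edgeR 4.0.16 (R 4.3.3). Each comparison used the libraries of its groups, after TMM scaling and a filter that kept contigs reaching 1 CPM in 3 of 6 or 6 of 12 libraries. The quasi-likelihood test was adjusted by Benjamini-Hochberg over all contigs (threshold 0.05, prior count 0.125). The SE is the absolute log2 fold change over the square root of F. The scripts were tested on simulated data. The members, the lists and the rule for named contigs (members, cluster CL1071, other homeodomain contigs, the 3 other transcription factors with the highest mean CPM and the 5 contigs most like each member) were chosen with earlier results of these data known. Alternatives were DESeq2 1.42.0 as a test or for size factors, library totals, no filter, edgeR's exact test, one fit of all libraries, a replicate block, each library left out and, added after the data were seen, reads in place of pairs and the alternatives of the 3 named transcription factors. Replicate numbers name separate trees and were not taken as pairs. No sequence of these contigs was used here.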

Additional observations from a re-analysis of the deposited data

How the results depend on the processing

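The log2 fold change of CL1071Contig3 in slight TPD trees against control trees of PB260 lay between 1.48 and 1.91 over 14 alternatives, which use the counts the contigs were chosen with. Over all comparisons, of 86 values under other settings and 78 without 1 library, the sign and the side of the threshold were as reported in 81 and 66 for CL1071Contig3 and in 82 and 73 for CL1071Contig1. Library totals in place of TMM, which moved the median log2 fold change of all contigs to values between -0.43 and 0.58, turned CL1071Contig1 to -0.050 in PB217 at month 1, 0.34 in TPD trees of PB217 against control trees, -0.30 between the control trees of both clones and 0.39 in the month difference, and CL1071Contig3 to -0.33 between the control trees of both clones and 0.022 in the clone difference; the CL1071Contig3 month difference was then 1.36 and called. Called changes of CL1071Contig3 were lost with DESeq2 size factors in TPD trees of PB217 against control trees (0.91) and with all 21 libraries in one fit in control trees of month 36 against month 1 (0.60). The cause was not tested.

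Without 1 library at a time, CL1071Contig3 ranged from 1.21 to 1.67 in severe TPD trees against control trees, from 0.79 to 1.13 in TPD trees of PB217 against control trees, from 0.47 to 0.83 in control trees over time, from 1.27 to 1.51 in trees under ethephon over time, from -0.12 to 0.33 between the control trees of both clones, from 0.031 to 0.28 in PB217 at month 1 and from 0.62 to 0.96 in the month difference. CL1071Contig1 ranged from -0.072 to 0.35 in slight TPD trees against control trees, from -0.31 to 0.20 in TPD trees of PB217 against control trees, from -0.10 to 0.40 in trees under ethephon over time, from -0.37 to -0.19 in severe TPD trees against control trees, from 0.020 to 0.15 in PB217 at month 1, from -0.060 to 0.45 in the clone difference and from -0.40 to 0.076 in the month difference (0.076 without TPD tree 2).

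CL10676Contig1 in slight TPD trees against control trees was called with library totals (1.02), without the filter (0.86), and at 0.83 with DESeq2, edgeR's exact test and one fit of all libraries. Severe against slight TPD trees gave 40 calls over all contigs, from 5 with library totals to 752 without the filter, and 0 to 76 without 1 library. TPD trees of PB217 against control trees gave 2605, 4875 with DESeq2, 6445 in one fit of all libraries, and 0 (without control tree 3) to 4611 (without TPD tree 3) without 1 library. Severe TPD trees against control trees gave 3439, 6775 in one fit, and 1005 to 3127 without 1 library. PB217 at month 1 gave 0, and 464 without the filter. Dry trees of both clones gave 2906 and 6537 in one fit, the clone difference 49 and 1014 without the filter, and the month difference 2102 and 4722 with library totals.

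Replicate numbers were not taken as pairs. Of 27 correlations between same-numbered trees, from -0.50 to 0.41, 6 were over 0.1, and in no comparison were all. For severe against slight TPD trees, which shared a harvest day, they were 0.086, 0.38 and 0.17. With 3 trees a group these values cannot decide whether trees were paired. With the replicate block, 88 contigs were called in severe against slight TPD trees, 6 in PB217 at month 1, 4156 in place of 6944 in PB217 trees under ethephon over time and 1363 in dry trees of both clones, and CL1071Contig3 had 1.67 in slight TPD trees against control trees. The block changed 0 calls or directions of the members. With 3 trees a group, small differences cannot be seen.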
